A study of Mus musculus with 14 samples.

Results

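The genes of DNA replication, S phase and mitosis examined here were 41 named genes of 21938 protein-coding genes on the mouse chromosomes. They were chosen by function, with earlier results of these data known. Origin licensing had 10 genes, helicase activation 4, and DNA synthesis and nucleotide supply 7. The control of G1 and S phase had 7, and G2 and mitosis 13. Trimethylated lysine 4 of histone H3 (H3K4me3), a mark of active and poised promoters, had been mapped by chromatin immunoprecipitation and sequencing (ChIP-seq) in immortalised mouse embryo fibroblasts (iMEF cells). The endogenous Ash2l gene of these cells had lost exon 4 through a Cre-ER recombinase, expressed from the CAGG promoter and switched on by 4-hydroxytamoxifen, and human ASH2L, a core subunit of the H3K4 methyltransferase complexes, was supplied from a lentiviral construct as a fusion with a mutant FKBP tag. All libraries came from cells with this fusion, a selected single-cell clone according to the methods, and the compound dTAG directs the fusion protein to degradation. The 12 H3K4me3 libraries formed 6 groups of 2 replicates, which were untreated cells and cells given dTAG for 30 min, 2 h, 4 h, 8 h or 16 h. A further 2 libraries were inputs, from untreated cells and from cells given dTAG for 16 h.

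The data examined were 2 lists of genomic positions, the union of H3K4me3 peaks over all samples and the putative enhancers of control cells. The peak list held 25431 peaks, 25357 of them on chromosomes 1 to 19, X and Y, and the enhancer list held 32965 regions. Neither list gives a value per sample, so the depth that each library reached cannot be read from them (the methods name only a planned minimum of reads), no replicate error exists for the values below, and time points could not be compared. A gene counted as marked when a peak reached to 1 kb or less from any of its transcription start sites (TSSs) in GENCODE, and the main TSS is that of its principal transcript. As a check of the labelled cell type, all 8 fibroblast markers had a promoter peak, and 1 of 10 markers of other cell types had one (Epcam, 724 bp).

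A cell copies its genome once per cycle. In G1 the origin recognition complex, Cdc6 and Cdt1 load rings of MCM proteins onto origins. At the start of S phase cyclin E with Cdk2 and other kinases turn these rings into running helicases by adding Cdc45 and GINS, and polymerases with the sliding clamp PCNA then make new DNA. The E2F factors, held back by the retinoblastoma protein, switch on many genes of this phase, and their binding site is a short run of T followed by G and C. Genes of G2 and mitosis, such as cyclin B with Cdk1 and the Polo and Aurora kinases, are switched on later. Many are controlled through a cell cycle genes homology region (CHR) bound by the DREAM and MuvB complexes, often together with CCAAT boxes bound by NF-Y.

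The sequences below are shown because most licensing genes held E2F letters and most genes of G2 and mitosis held a CHR. The E2F letters searched were TTTCGCGC, TTTGGCGC, TTTCCCGC and TTTGCCGC, the CHR was searched as TTTGAA or TTCGAA, the CCAAT box as CCAAT and the GC box, a binding sequence of Sp1, as GGGCGG. All were searched on both strands from 250 bp before to 50 bp after the main TSS, and E2F and GC box letters can overlap. Each line gives 30 bases of the reference build GRCm38.p6 around the match nearest to the TSS, read in the direction of transcription, with the match in capitals. Where the capitals do not begin with T in the first set, or begin with TTC and end with AAA in the second set, the match is on the opposite strand. These windows were picked after the matches were known. The first set holds the 8 licensing genes with an E2F match.
Orc1 (chr4:108579416-108579445, + strand): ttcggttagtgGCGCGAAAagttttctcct
Cdc6 (chr11:98908002-98908031, + strand): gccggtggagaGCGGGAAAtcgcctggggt
Cdt1 (chr8:122568036-122568065, + strand): ggaactaccttTTTGGCGCcatggcgcaaa
Gmnn (chr13:24762148-24762177, - strand): atattctcgtgTTTGCCGCtagtgagagtc
Mcm3 (chr1:20820275-20820304, - strand): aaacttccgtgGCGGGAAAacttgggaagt
Mcm4 (chr16:15637460-15637489, - strand): agctacacgccTTTGCCGCtgtgattggcc
Mcm5 (chr8:75109550-75109579, + strand): ggaggctggttTTTCCCGCgaaagtcggct
Mcm6 (chr1:128359734-128359763, - strand): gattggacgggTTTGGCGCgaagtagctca
The second set holds the 10 genes of G2 and mitosis with a CHR match.
Ccnb2 (chr9:70421533-70421562, - strand): agcggcgcggtaTTTGAAtcgcggaccggg
Cdk1 (chr10:69352910-69352939, - strand): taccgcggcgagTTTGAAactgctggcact
Cdc20 (chr4:118437344-118437373, - strand): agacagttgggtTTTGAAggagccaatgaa
Plk1 (chr7:122159453-122159482, + strand): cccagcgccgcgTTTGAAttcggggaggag
Aurka (chr2:172370521-172370550, - strand): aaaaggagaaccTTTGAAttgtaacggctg
Aurkb (chr11:69045636-69045665, + strand): tagagcgggagaTTCGAAagcgtccgggtc
Bub1 (chr2:127831828-127831857, - strand): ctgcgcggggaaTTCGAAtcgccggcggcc
Foxm1 (chr6:128362951-128362980, + strand): gccggcgccaatTTCAAAcagcggaacaac
Top2a (chr11:99024195-99024224, - strand): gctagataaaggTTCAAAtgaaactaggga
Mki67 (chr7:135716460-135716489, - strand): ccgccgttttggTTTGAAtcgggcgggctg

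In the licensing genes the E2F match began between 243 bp before the TSS (Gmnn) and 38 bp after it (a second match in Mcm3). Cdt1 and Mcm6 carried the same 8 letters, TTTGGCGC, at 32 bp after and 88 bp before the TSS. In the mitotic genes the CHR nearest to the TSS lay within 32 bp of it for 9 of 10 genes, and 116 bp before it in Mki67. That share was not taken for other coding promoters, so 9 of 10 has no background beside it. Further CHR matches lay 45 bp before the TSS in Cdk1, and 120 to 179 bp before it in Ccnb2, Aurkb, Top2a and Mki67. In the windows shown, Bub1 and Aurkb had the spelling TTCGAA, which 1.84% of all coding promoters held, and the others had TTTGAA, held by 15.6%. A match is a run of letters and not a measured binding site.

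E2F letters were found in 14 of the 41 promoters (34.1%), against 2.88% of all coding promoters and 4.38% of coding promoters whose widest peak overlaps a CpG island. The 14 promoters were unevenly spread over the roles. Licensing genes held 8 (Orc1, Cdc6, Cdt1, Gmnn, Mcm3, Mcm4, Mcm5 and Mcm6), the control genes of G1 and S phase held 4 (E2f1, E2f2, Cdk2 and Cdc25a), and Gins1 and Cdk1 were the others. None of the 7 genes of DNA synthesis and nucleotide supply had a match in this window. CHR letters were found in 12 promoters (29.3%), against 17.2% of all coding promoters and 12.4% of those with an island. Of these 12, 10 were among the 13 genes of G2 and mitosis, and Mcm2 and Cdc45 were the only others among the 28 remaining genes. In a longer window, from 500 bp before to 100 bp after the TSS, 22 members held CHR letters, against 35.8% of coding promoters. Since G2 and mitosis has 13 genes, more of the other members held CHR letters there than in the shorter window. Cdk1, the kinase of mitotic entry, was the single promoter with both E2F and CHR letters, and 16 promoters had neither.

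CCAAT letters were found in 30 promoters (73.2%), against 38.6% of all coding promoters and 37.0% of those with an island. They were present in 11 of 13 genes of G2 and mitosis, 7 of 10 licensing genes, 4 of 4 genes of helicase activation, 5 of 7 control genes and 3 of 7 synthesis genes. All 12 promoters with a CHR also held CCAAT letters (29.3% of the members), a pair found in 7.57% of all coding promoters and 5.35% of those with an island. The GC box was found in 32 promoters (78.0%), against 45.4% of all coding promoters and 68.9% of those with an island, which is closer to the share of island genes. The CHR matches of the members began at a median of 38.5 bp before the TSS, against 144 bp for coding genes with a peak. In Top2a, which encodes the topoisomerase that untangles sister chromatids, 4 CHR and 6 CCAAT matches lay in the window. In a separate list of 82 other replication and division genes, E2F letters were found in 9 (11.0%), CHR in 24 (29.3%), CCAAT in 45 (54.9%) and GC boxes in 60 (73.2%), and 17 (20.7%) had both CHR and CCAAT letters.

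**Figure D1:**
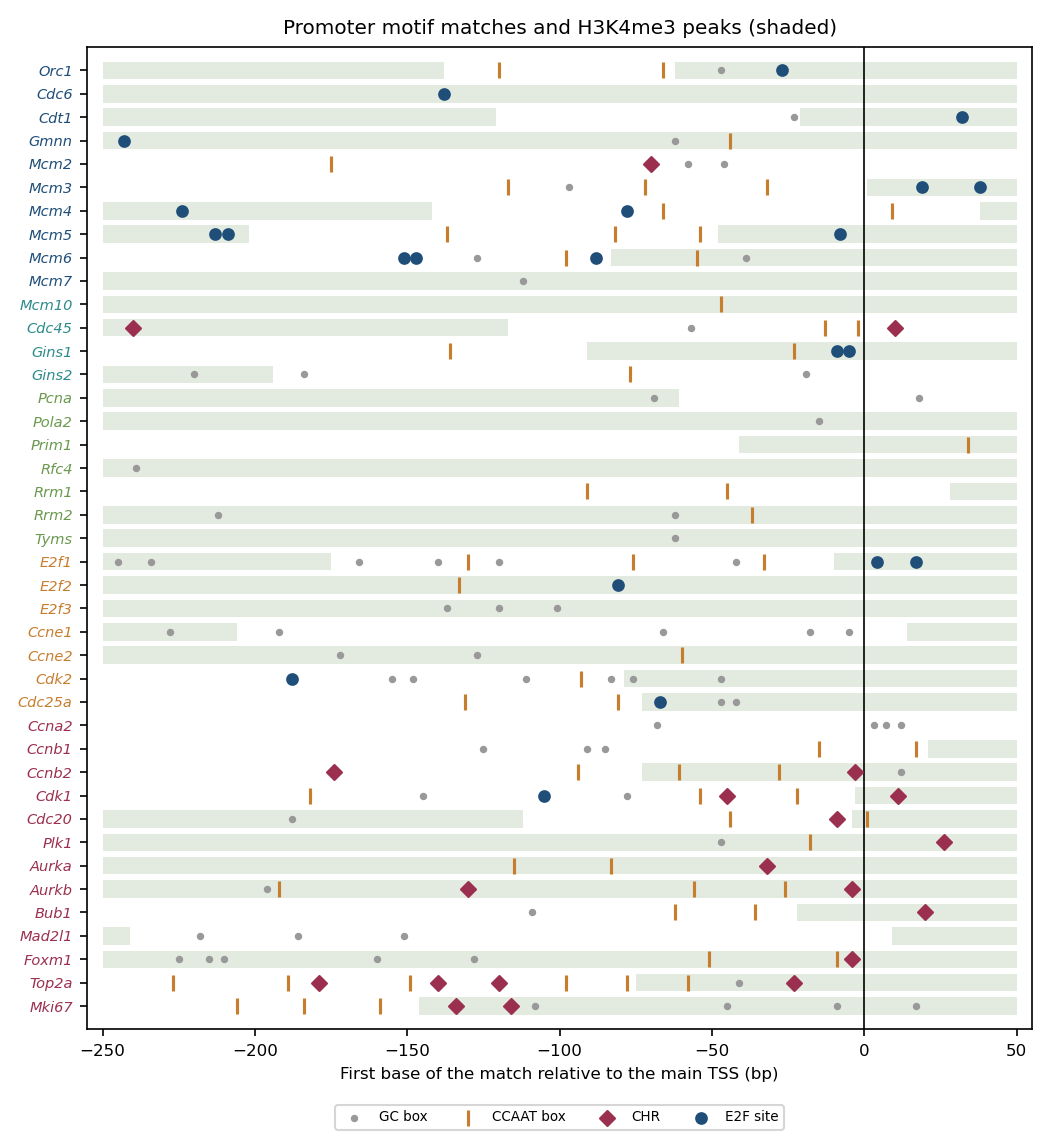
Each row is a gene, coloured by role as in the map of peaks, and the x axis is the position in bp relative to the main TSS, from 250 bp before to 50 bp after it. Points mark the first base of each motif match and shading marks H3K4me3 peaks. E2F points lie mostly in the upper rows (8 of 10 licensing genes) and CHR points in the lower rows (10 of 13 genes of G2 and mitosis), and many CCAAT matches lie in unshaded stretches.

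All 41 genes had an H3K4me3 promoter peak, against 59.1% of coding genes. The members had 67 distinct peaks within 1 kb of their TSSs. A single peak was found at 21 genes, a pair at 16 and more at 4 (Mcm7, Gins1, Pcna and Mad2l1). More than 1 promoter peak was thus present at 20 of 41 members (48.8%), against 40.3% of coding genes with a peak. The widest peak overlapped a CpG island at 40 members (97.6%), against 86.1% of coding genes with a peak. Prim1, the catalytic subunit of primase, was the exception. With stricter islands (at least 500 bp, GC above 55% and CpGs above 0.65 of their expected number), 27 of 41 members had one, against 59.5%. Among relatives used mainly in germ cells, Ccna1 had a peak of 888 bp, and none was found at Ccnb3 or Aurkc.

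The members had a median width of the widest promoter peak of 1196 bp, and their quartiles were 933 and 1689 bp. Coding genes with a peak had a median of 1255 bp and quartiles of 908 and 1710 bp, and 20 of 41 members lay above 1255 bp. The order turned when peaks within 1 kb of each other were merged, with 1793 bp for the members and 1628 bp for coding genes. By role, medians were 1034.5 bp for licensing, 988 bp for helicase activation, 1373 bp for DNA synthesis, 1810 bp for the control of G1 and S phase and 1411 bp for G2 and mitosis. The ranges of the roles overlapped.

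**Figure D2:**
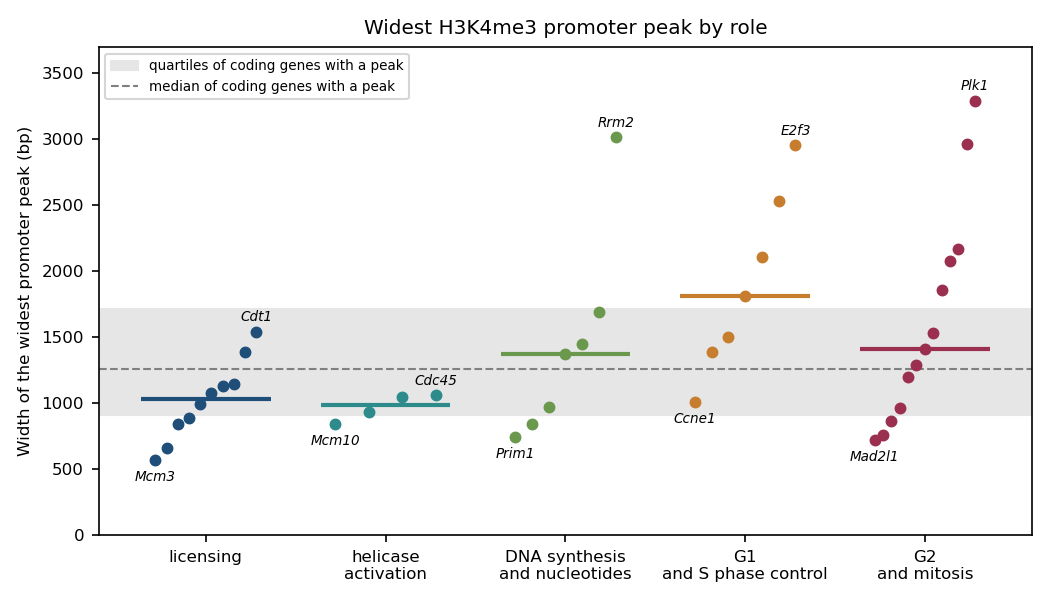
Each point is the widest H3K4me3 promoter peak of a gene in bp, by role, and horizontal bars are the medians of the roles. The grey band spans the quartiles (908 and 1710 bp) and the dashed line the median (1255 bp) of coding genes with a peak. With peaks not merged, licensing and helicase genes stay at or below 1540 bp. Rrm2, E2f3 and Plk1 top the other roles at 3016, 2957 and 3293 bp.

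Among the licensing genes, Cdt1, the loader that brings MCM rings to origins, had the widest peak at 1540 bp. Its inhibitor geminin (Gmnn) had 1389 bp. Orc1, the largest subunit of the origin recognition complex, had 1132 bp and Cdc6, the ATPase that works with Cdt1, had 659 bp. The 6 subunits of the MCM ring had 890 bp at Mcm2, 570 bp at Mcm3, 842 bp at Mcm4, 1073 bp at Mcm5, 996 bp at Mcm6 and 1144 bp at Mcm7. All 6 were below the median of coding genes with a peak. Mcm3 (chr1:20819742-20820311) was the narrowest of the 41, wider than 7.54% of coding genes with a peak. With peaks merged within 1 kb, Mcm4, Mcm5 and Mcm7 had 2204, 1697 and 3266 bp, above the 1628 bp of coding genes. Mcm2, Mcm3 and Mcm6 kept their widths.

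Among the 4 genes of helicase activation, Mcm10, which helps the new helicase to start, had 838 bp and Cdc45 1059 bp. The GINS subunits Gins1 and Gins2 had 1043 and 933 bp. These widths were close, but with peaks merged within 1 kb they were 838, 2358, 1484 and 1653 bp in the same order. At Gins1 the wide peak began at -5894 bp from the main TSS, next to the start of Abhd12, and came in through an upstream TSS of the gene. The peak over the main TSS of Gins1 was 485 bp wide, and this value replaced 1043 bp when only protein-coding transcripts, the main transcript, RefSeq TSSs or a window of 500 bp were used.

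Among the genes of DNA synthesis, the clamp gene Pcna had 967 bp, the clamp loader subunit Rfc4 1373 bp, the polymerase alpha subunit Pola2 1689 bp and Prim1 740 bp. Ribonucleotide reductase, which makes deoxynucleotides, had unlike promoters for its subunits. The catalytic subunit Rrm1 had a peak of 845 bp that began 28 bp after the TSS, and the S phase subunit Rrm2 had 3016 bp (chr12:24706779-24709794), from 1462 bp before to 1553 bp after the TSS, wider than 97.1% of coding genes with a peak. Tyms, which makes thymidylate, had 1452 bp. The upstream sequences of Rrm2 and Mcm3 stand for a wide and a narrow peak, since Rrm2 was the widest and Mcm3 the narrowest member with no exon in the 250 bp before the TSS. They are given from GRCm38.p6 in the direction of transcription up to the base before the TSS, with CCAAT and GC boxes of either strand in capitals.
Rrm2 (chr12:24707991-24708240, + strand): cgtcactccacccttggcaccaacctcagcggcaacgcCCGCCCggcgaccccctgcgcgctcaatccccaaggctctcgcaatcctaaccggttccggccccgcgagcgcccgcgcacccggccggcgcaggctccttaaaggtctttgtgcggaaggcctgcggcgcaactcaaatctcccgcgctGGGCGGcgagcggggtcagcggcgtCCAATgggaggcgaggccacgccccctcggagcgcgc
Mcm3 (chr1:20820313-20820562, - strand): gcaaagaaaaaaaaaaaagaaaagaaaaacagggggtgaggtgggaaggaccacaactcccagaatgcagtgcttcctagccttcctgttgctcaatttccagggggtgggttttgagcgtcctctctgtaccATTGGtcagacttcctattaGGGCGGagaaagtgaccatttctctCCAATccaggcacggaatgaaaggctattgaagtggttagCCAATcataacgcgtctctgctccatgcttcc
The whole stretch shown for Rrm2 lay inside its peak, and the whole stretch shown for Mcm3 lay outside, since the Mcm3 peak began 1 bp after the TSS.

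In the control of G1 and S phase, the E2F factors had 1810 bp at E2f1, 1504 bp at E2f2 and 2957 bp at E2f3. The paired E-type cyclins differed, with 1011 bp at Ccne1 and 2532 bp at Ccne2. Their kinase partner Cdk2 had 1387 bp, and Cdc25a, the phosphatase that activates it, had 2110 bp. Ccne1 was the only gene of this role below 1255 bp. With peaks merged within 1 kb it had 1793 bp, above the 1628 bp of coding genes. Cdk2 and E2f2, unchanged by merging, then lay below that median.

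In G2 and mitosis, Plk1, the Polo kinase, had the widest peak of all members (chr7:122158159-122161451, 3293 bp, wider than 98.0% of coding genes with a peak). Aurka, the kinase of the spindle poles, had 2967 bp and its relative Aurkb, of the chromosomal passenger complex, 1533 bp. Cdk1 had 2171 bp, while its cyclins had 1411 bp at Ccnb1, 962 bp at Ccnb2 and 865 bp at Ccna2. Foxm1, a transcription factor of this phase, had 2081 bp, and Cdc20, which activates the anaphase-promoting complex, 1861 bp. Bub1 and Mad2l1, which act in the spindle checkpoint, had 757 and 717 bp. Mki67, which encodes the Ki-67 antigen, and Top2a had 1288 and 1196 bp.

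In the wider list of 82 genes, 80 had a promoter peak, against 59.1% of coding genes. Their median width was 1231 bp, near the 1255 bp of coding genes with a peak. The exceptions were Plk4 and Kif11. The widest were those of Cdk6 (4208 bp), Ccnd3 (3075 bp), Ccnd1 (2783 bp) and Ccnd2 (2560 bp). These are a kinase and cyclins that act at the entry into the cycle. Cdk4, another kinase of this step, had 1748 bp.

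**Figure D3:**
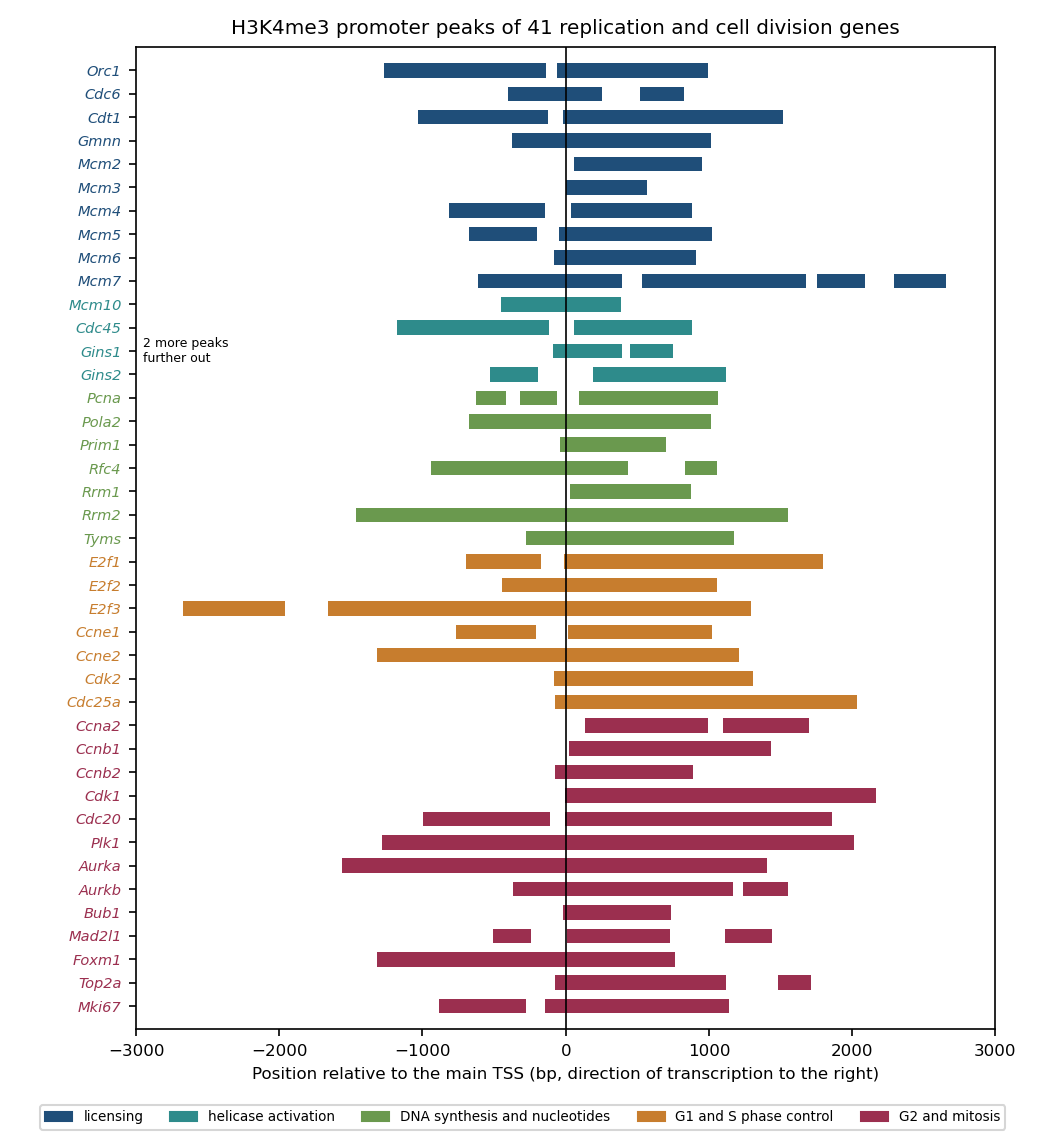
Each row is a gene and each bar an H3K4me3 promoter peak, placed on the x axis by its position relative to the main TSS in bp, with transcription to the right and colours for the roles. Most bars reach further to the right of the TSS than to the left, and 6 genes (Mcm4, Cdc45, Gins2, Pcna, Ccne1 and Mad2l1) have the TSS in a gap between bars. For Gins1, 2 further peaks lie outside the plotted range.

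The position of the peaks around the TSS was then compared, over peaks within 1 kb of the main TSS. The main TSS lay inside a peak at 30 of 41 members (73.2%), against 77.2% of coding genes with a peak. At these 30 genes the peak reached a median of 212 bp before the TSS and 1089 bp from the TSS on, against 311 and 926 bp for coding genes. The reach before the TSS depended on the setting, with 83 bp against 303 bp from the first protein-coding TSS and, in the other order, 616 bp against 519 bp with merged peaks. The part after the TSS was the longer in 22 of 30 (73.3%), against 85.0%. Some peaks began almost at the TSS, with 3 bp before it at Cdk1, 4 bp at Cdc20, 10 bp at E2f1, 21 bp at Cdt1 and 22 bp at Bub1. Others lay mostly before it, as at Rfc4 with 939 bp before and 434 bp from the TSS on, and at Foxm1 with 1320 and 761 bp.

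At 5 members (12.2%) the main TSS was outside peaks and only followed by one, against 7.71% of coding genes with a peak. These peaks began 1 bp after the TSS at Mcm3, 21 bp at Ccnb1, 28 bp at Rrm1, 60 bp at Mcm2 and 132 bp at Ccna2. At 6 members (14.6%) the TSS lay in a gap between peaks, against 8.57%. The gaps measured 156 bp at Pcna, 172 bp at Cdc45, 180 bp at Mcm4, 220 bp at Ccne1, 250 bp at Mad2l1 and 383 bp at Gins2. With the gaps at genes whose TSS was covered, a separate peak within 1 kb before the TSS was found at 12 members (29.3%), against 26.3%, and the median gap was 160.5 bp against 151 bp. The covered genes of this kind were Orc1, Cdt1, Mcm5, E2f1, Cdc20 and Mki67, with gaps of 76 to 165 bp. Peaks further upstream, counted for E2f3 and Gins1 through other TSSs of these genes, were not included. This last share was near that of coding genes.

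The annotated start bears on these counts. The nearest RefSeq start lay within 50 bp of the main GENCODE TSS at 32 of 41 genes, and at a median of 8 bp. From the nearest RefSeq start, 33 of 41 members had the TSS inside a peak, against 78.8% of coding genes. The members were thus slightly above coding genes here, and below them from the GENCODE TSS. Gins2, Pcna, Ccne1 and Ccnb1 joined the members inside a peak, with RefSeq starts 229, 134, 44 and 84 bp after the GENCODE TSS. Mcm5 left them. Gins2, Pcna and Ccne1 therefore no longer had the TSS in a gap between peaks, while Mcm5 now did. For Ccna2, cyclin A2, the RefSeq start lay 888 bp before the GENCODE TSS and no peak was within 1 kb of it, so 40 of 41 members had a promoter peak by RefSeq TSSs. The promoter letters of Ccna2 given above were searched around its GENCODE TSS alone.

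**Figure D4:**
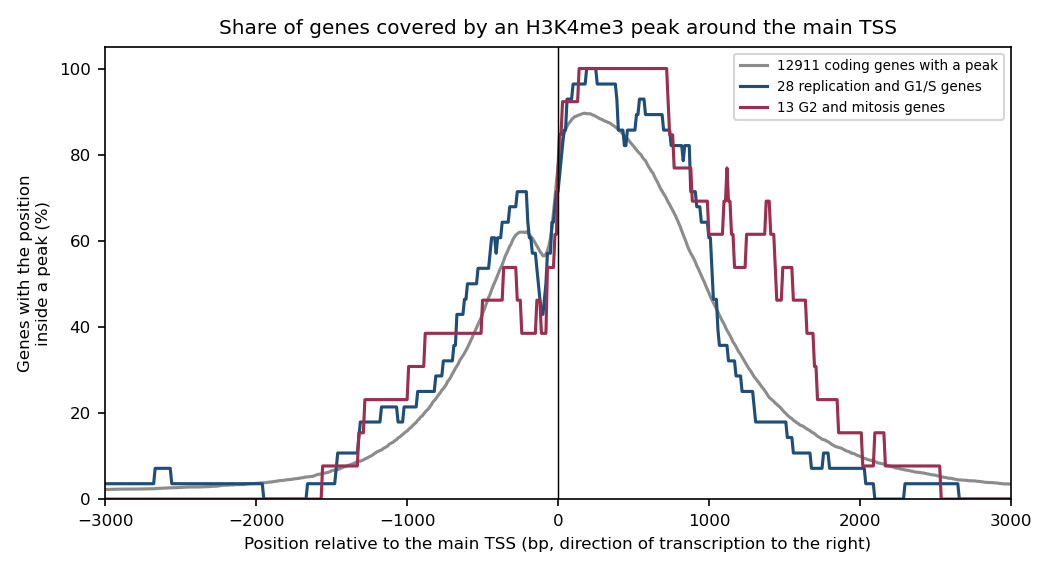
The y axis is the share of genes in percent whose position, in bp from the main TSS on the x axis, lies inside any H3K4me3 peak. Lines stand for 28 genes of replication and of G1 and S phase, 13 genes of G2 and mitosis, and 12911 coding genes with a peak. All members are covered at 250 bp after the TSS, every line dips just before the TSS, and at 1500 bp after it 7 of 13 genes of G2 and mitosis are still covered.

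At 250 bp after the TSS all 41 members (100%) were inside a peak, against 88.9% of coding genes with a peak. At 1000 bp after it the shares were 61.0% and 47.9%. At 1500 bp, 7 of 13 genes of G2 and mitosis (53.8%) and 5 of 28 other members (17.9%) were covered, against 20.2% of coding genes. At 100 bp before the TSS 17 members (41.5%) were covered, against 56.5%, and at 500 bp before it 51.2% against 43.1%. Motif matches lay on both sides of these edges. Of 22 E2F matches 16 were inside a peak (72.7%, against 72.9% for matches of coding genes with a peak), of 20 CHR matches 12 (60.0% against 52.4%), of 61 CCAAT matches 20 (32.8% against 40.9%), and of 71 GC box matches 38 (53.5% against 68.2%). At Mcm5, Mcm6 and Gins1 some E2F matches overlapped on opposite strands and were counted on each.

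Some of the peaks also lay near the start of a neighbour. The widest peak was also within 1 kb of the start of another coding gene at 8 members (19.5%), against 21.3% of coding genes with a peak. A coding TSS on the other strand within 1 kb upstream was present at 7 members (17.1%), against 14.4%. These divergent pairs were Orc1 with Prpf38a at 118 bp, Mcm4 with Prkdc at 466 bp, Mcm7 with Ap4m1 at 160 bp, Cdc45 with Ufd1 at 322 bp, Cdk2 with Pmel at 177 bp, Aurka with Cstf1 at 175 bp and Foxm1 with Rhno1 at 56 bp. Their median distance was 175 bp, against 134 bp for all divergent coding genes. At Orc1 and Cdc45 the widest peak was the one on the neighbour's side. The peak on the gene's own side was 1059 bp at Orc1 and 825 bp at Cdc45. At Mcm7 the widest peak lay inside the gene, from 535 to 1678 bp after the TSS, and the TSS was covered by another peak of 1003 bp. Which gene of a pair a peak belongs to cannot be told from positions.

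Putative enhancers were counted in each gene and within 50 kb of it. The authors had defined them by H3K4me1, H3K27ac and open chromatin in control cells, away from TSSs. At least 1 was found for 30 of 41 members (73.2%), against 62.3% of coding genes, and the median was 2 against 1. The medians were equal, at 1 and 1, within 50 kb of the main TSS alone or with enhancers of at least 400 bp, and at 3 and 3 within 100 kb. They were 1 and 0 within 25 kb, and 2 and 1 with enhancers over 1 kb from any TSS. Coding genes here included those without a promoter peak. An enhancer inside the gene was found for 7 members (17.1%), against 25%, and the members were somewhat shorter genes (median 14346 bp against 17425 bp). The 76 enhancers near members were distinct regions, 34 before and 42 after the main TSS. For 22 of them the member had the nearest main TSS of all coding genes. That share was not taken for enhancers near other coding genes, so 22 of 76 has no background beside it. No enhancer was found for Cdc6, Mcm7, Mcm10, Gins1, Tyms, Cdk2, Ccnb1, Plk1, Aurka, Bub1 and Mad2l1. Plk1 and Aurka, with the widest and the third widest peak, were thus without an enhancer in this distance.

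The most enhancers, 6 each, were near E2f2 and Ccne1. At Ccne1, cyclin E1, 5 of the 6 had Ccne1 as the nearest main TSS, at 4310, 4764 and 20464 bp before and 22690 and 29816 bp after it. At E2f2 only the region 12797 bp after the TSS, inside the gene, was nearest to E2f2, and those before it were nearest to Id3. Rrm2 had 3 enhancers, at 2349, 15108 and 26451 bp after its TSS, all with Rrm2 as the nearest main TSS. The 3 regions of Pola2 lay inside the gene, at 9841 to 23131 bp after the TSS. Cdk1 had 2, at 30975 and 31930 bp after the TSS. The 4 regions near Mcm4 all lay in the neighbour Prkdc. By role the medians were 1.5 for licensing, 0.5 for helicase activation, 2 for synthesis, 2 for the control of G1 and S phase and 1 for G2 and mitosis.

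Enhancers that overlapped an H3K4me3 peak numbered 11 of 76, near 7 members, with no share over all putative enhancers to set beside them. The nearest to a member was a 707 bp region in Ccna2 that began 230 bp after the GENCODE TSS, inside the window around TSSs that the authors had excluded, and overlapped the promoter peak of the gene. It lay more than 1 kb after the RefSeq start of Ccna2. Prim1 and Cdk2 were the members in the distal segment of chromosome 10 that also holds Mdm2 and Cdk4, with peaks of 740 and 1387 bp and with 1 and 0 enhancers.

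**Figure D5:**
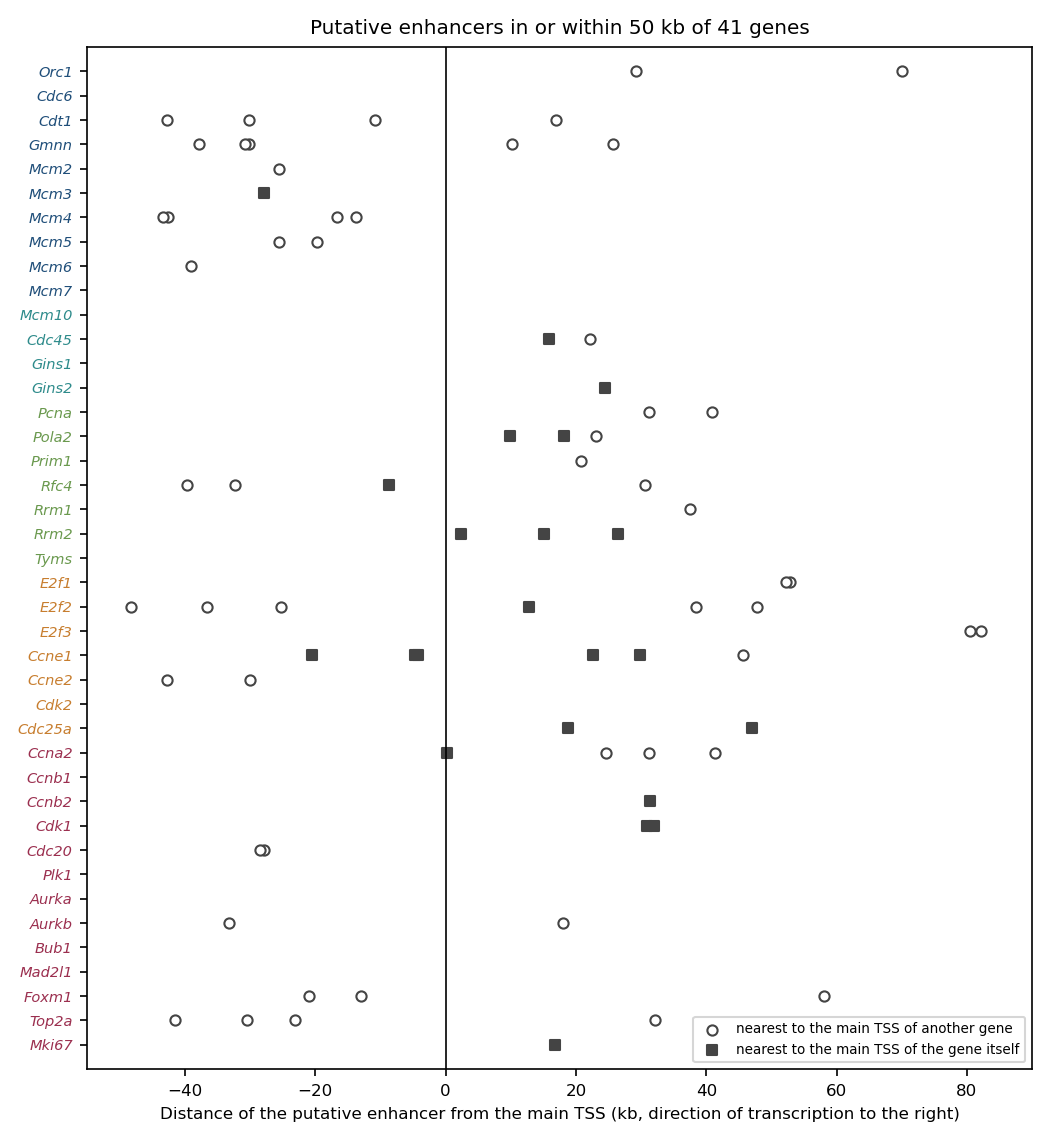
Each row is a gene, the x axis is the distance in kb from the main TSS to the nearest base of a putative enhancer, and transcription runs to the right. Filled squares are regions whose nearest coding main TSS is that of the gene, and open circles are nearest to another gene. Ccne1 and E2f2 have 6 regions each, 5 filled at Ccne1, and 11 genes have none.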

How the data were processed

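H3K4me3 ChIP-seq of iMEF cells was analysed from the deposited lists of positions. Per the methods and the processing notes of the submitters, the authors trimmed reads with Trim Galore, aligned them with BWA to mm10 (GRCm38.p6), filtered with SAMtools, merged replicates with Picard and called narrow peaks with MACS. MACS peak edges depend on depth and merging. The deposited values are chromosome, start and end, with 0 columns of values per sample, so the depth reached is unknown, and a test between groups, replicate error and pairing could not be had. Peak starts were taken to count from 0 and enhancer starts from 1, as their widths show.

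TSSs were those of GENCODE release 21 for mouse (M21), which can differ from the release used by the authors. The main TSS was that of the principal protein-coding transcript. CpG islands were called on the masked reference with a score of 17 for a CpG and -1 for another base, keeping segments longer than 200 bp in which GC exceeded 50% and CpGs exceeded 0.6 of their expected number, which gave 16191 islands. Promoters ran from 250 bp before to 50 bp after the main TSS. The promoter sequences were read from the RefSeq genome GRCm38.p6, and the RefSeq promoter table held 33 of the 41 genes. Shares of members are set beside those of all coding genes, with no test, since genes are not replicates. The members and lists were chosen with earlier results of these data known. Genes named were the members, with their neighbours, and from the other list the widest, those without a peak and Cdk4. Alternatives were other TSS sets and windows, longer peaks, merged peaks, stricter islands, other promoter lengths and other enhancer distances. The classes of peak arrangement, the pair of CHR with CCAAT and the RefSeq starts were added after seeing the data. Functions were tested on simulated data. Python 3.11.15, NumPy 2.4.6, pandas 2.3.3, SciPy 1.17.1, Numba 0.67.0 and Matplotlib 3.10.9 were used.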

Additional observations from a re-analysis of the deposited data

How the results depend on the processing

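Of 74 summary values recomputed under the alternatives, 65 stayed within 1.5 times the main count or within the 95% interval of the main median. That interval is over genes, which are not replicates. The rule looks at the members alone, so a changed order against coding genes can pass, as for the TSS inside a peak from RefSeq starts. Counts from the RefSeq promoter table came from 33 of the 41 genes. With peaks merged when within 1 kb, the members changed from below to above coding genes in median width (1793 bp against 1628 bp) and in median reach before the TSS (616 bp against 519 bp), which was 83 bp against 303 bp from the first protein-coding TSS. With peaks of at least 500 bp, 8 members (all coding genes 10.3%) had a peak only after the main TSS, and with the nearest RefSeq start 3 had (7.08%). These settings for the arrangement were chosen after seeing the data. With promoters from 500 bp before to 100 bp after the TSS, CHR letters were found in 22 members (35.8% of coding genes) and CHR with CCAAT letters in 20 (21.8%), a pair also chosen after seeing the data. Within 100 kb the median number of enhancers was 3 against 3. It was 1 against 1 with enhancers of at least 400 bp or within 50 kb of the main TSS. It was 1 against 0 within 25 kb, and 2 against 1 with enhancers over 1 kb from any TSS. Inside genes alone 7 members (25% of coding genes) had an enhancer, with a median of 0. Of 286 widths of single members, 19 moved by more than 1.5 times, 15 of them on merging peaks. No paired analysis was possible because positions carry no value for any replicate. The cause of these changes was not tested. The depth that the libraries reached is unknown here, so a gene without a peak or an enhancer cannot be called unmarked.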
